A study of Mus musculus with 12 samples.

Results

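The genes described here are 10 mouse genes of the endoplasmic reticulum (ER) stress response and the integrated stress response, read across liver RNA sequencing libraries from 4 groups. They were chosen by symbol (Hspa5, Xbp1, Herpud1, Dnajb9, Atf4, Ddit3, Atf3, Trib3, Chac1 and Asns), a list drawn up with earlier results of these data known. The rule for the list was targets of the transcription factors ATF6, XBP1 and ATF4, with Ddit3. All 10 were found among the 55401 genes of the deposited table, and all 10 were among the 19014 genes that passed the filter on low counts.

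The study asked what the phospholipid-remodelling enzyme LPCAT3 does in alcoholic liver injury. Livers came from C57BL/6 mice labelled male, 8 to 10 weeks old. All mice carried floxed Lpcat3 on both alleles (LPCAT3flox/flox, FLOX), and one genotype also carried a Cre (LPCAT3flox/flox-cre, LKO). Neither the promoter driving the Cre nor the part of the gene it removes is given in the labels. Each genotype received control feeding (NC) or the NIAAA diet (ALD), an ethanol-feeding model of alcoholic liver injury. The 11 libraries analysed were 3 FLOX-NC, 2 LKO-NC, 3 FLOX-ALD and 3 LKO-ALD, with 1 further LKO-NC sample not analysed here. Nothing in the labels says that samples of a group are separate mice, so a p-value here reflects the spread among the libraries, which may be technical. In whole liver, fewer cells of a type and less RNA per cell cannot be told apart.

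Misfolded protein in the ER lumen is sensed by ATF6, IRE1 and PERK. ATF6 and the IRE1-spliced form of XBP1 raise chaperones and ER-associated degradation factors. PERK and the other eIF2 alpha kinases (GCN2, PKR and HRI) slow general translation while favouring translation of ATF4 mRNA, and ATF4 then raises genes of amino acid supply, with CHOP (the product of Ddit3), ATF3, TRIB3 and CHAC1 downstream. The liver is rich in ER because it secretes most plasma proteins, and ethanol feeding is a setting in which this response has long been studied. Much of the regulation of ATF4 and XBP1 lies in translation, splicing and protein cleavage, which gene-level RNA counts do not measure.

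The promoters of Hspa5 and Asns are shown because these genes stand for the ER chaperone arm and the ATF4 amino acid arm, and the FLOX-ALD libraries high for one were not those high for the other. The sequences are RefSeq windows of build GRCm38.p6, read 5′ to 3′ on the gene's strand up to the base before the RefSeq start. In the Hspa5 window (chr2:34771840-34772089, plus strand), capitals mark an ER stress element (CCAAT, 9 bases of any kind, CCACG) and the 6-base core of the XBP1 element (GACGTG). In the Asns window (chr6:7693210-7693459, minus strand), capitals mark an amino acid response element, the ATF4 and C/EBP site (TGATGNAAN). Other annotated starts lie inside these windows. Transcript ENSMUST00000028222 of Hspa5 starts at 34771970, upstream of the marked ER stress element. Transcript ENSMUST00000031766 of Asns starts at 7693254, upstream of the marked amino acid response element.
Hspa5: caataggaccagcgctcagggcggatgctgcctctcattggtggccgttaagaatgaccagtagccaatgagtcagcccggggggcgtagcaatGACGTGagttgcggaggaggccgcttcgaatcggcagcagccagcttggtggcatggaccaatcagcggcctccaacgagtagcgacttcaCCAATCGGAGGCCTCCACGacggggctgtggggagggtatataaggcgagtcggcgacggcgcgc
Asns: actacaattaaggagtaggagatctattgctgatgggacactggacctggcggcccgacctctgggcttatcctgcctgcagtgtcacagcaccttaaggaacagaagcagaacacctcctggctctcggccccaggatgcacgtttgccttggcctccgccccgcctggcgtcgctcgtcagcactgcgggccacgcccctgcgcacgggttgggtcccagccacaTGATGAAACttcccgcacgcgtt

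The full search covered both strands of 300-base windows, and all 10 genes had a window. The genes were listed as targets of ATF6, XBP1 and ATF4, with Ddit3. Shares of their sites above those of all windows can therefore follow from the choice and add no support. The amino acid response element was present in 5 of the 10 windows, against 3.95% of all 32851 windows. The ER stress element, searched only with the spacing given above, was present in 1 window (Hspa5), against 0.119% of all windows. Forms with another spacing were not searched, so a window without a match may still hold one. The Herpud1 window, for example, holds ATTGG and CCACG with 1 base between them, which this search could not match. The XBP1 core was present in 2 (Hspa5 and Ddit3), against 6.38%, and the longer XBP1 element TGACGTGG, which contains that core, was in none, against 0.676%. The 5 windows with an amino acid response element are shown side by side, each read in the direction of the element (capitals) with 10 bases on either side. The 5 genes share this element while their RNA levels, given below, were highest in 3 different libraries.
Atf3: gcggacttggTGATGCAAGtgcgagaagg
Chac1: ctggcaggagTGATGCAACggcagggaag
Trib3: cccgcccggcTGATGTAAAcctgagctaa
Asns: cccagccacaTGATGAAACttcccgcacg
Herpud1: gggtgcgggcTGATGCAACccgccgtggt
Counted from the RefSeq start, the element spans bases -111 to -103 in Atf3, -194 to -186 in Chac1, 14 to 22 in Trib3, -23 to -15 in Asns and -113 to -105 in Herpud1. A match of letters is a description and does not show binding.

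The libraries held between 39063371 (FLOX-ALD 3) and 73557868 (LKO-ALD 3) estimated counts. Lpcat3 was lower in both LKO groups, at 33.2 ± 5.63 (SD, n = 2) against 97.2 ± 8.8 TMM-scaled counts-per-million units (CPM; SD, n = 3) on control feeding and at 12 ± 2.99 against 37.2 ± 6.4 CPM on the NIAAA diet (SD, n = 3 in each), with no overlap between genotypes on either feeding. The genotype differences of -1.55 (SE 0.255) and -1.63 (SE 0.222) on the log2 scale had adjusted p = 0.176 and 0.132. Lpcat3 was also lower on the diet by edgeR, at -1.39 in floxed mice (SE 0.22, adjusted p = 0.0389). In Cre mice the diet effect on Lpcat3 was -1.47 (SE 0.239, adjusted p = 0.0303). Mitochondrially encoded transcripts took 12.1 to 15.4% of counts in 8 libraries and over 20% in 3, namely LKO-NC 1 (25.3%), FLOX-ALD 2 (22.3%) and FLOX-ALD 3 (26.4%). Library FLOX-ALD 1, labelled male, held 772 CPM of Xist and no count for 4 Y-linked genes, so it goes against its label, and the diet effects of the 10 genes are also given without it, after the counts of called genes. The 12 hepatocyte markers were all present, with sums of 141860 to 148613 CPM in FLOX-NC, 97760 and 151640 in LKO-NC, 89464 to 164982 in FLOX-ALD and 91513 to 122859 in LKO-ALD.

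The diet raised Atf4 averaged over genotypes, and Atf4 was the only one of the 10 genes past the threshold in any comparison by the edgeR test. Hspa5, Dnajb9, Ddit3 and Asns had larger fitted differences but a wider spread between libraries. The NIAAA libraries were uneven: FLOX-ALD 1, FLOX-ALD 3 and LKO-ALD 3 held the highest Hspa5 and Xbp1, whereas FLOX-ALD 2, LKO-ALD 1 and LKO-ALD 3 held the highest Trib3 and Asns. With FLOX-ALD 1 set aside, FLOX-ALD 3 and LKO-ALD 3 still held the 2 highest values of Hspa5 and Xbp1. LKO-ALD 3 was the highest of the 11 libraries for 8 of the 10 genes.

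**Figure D1:**
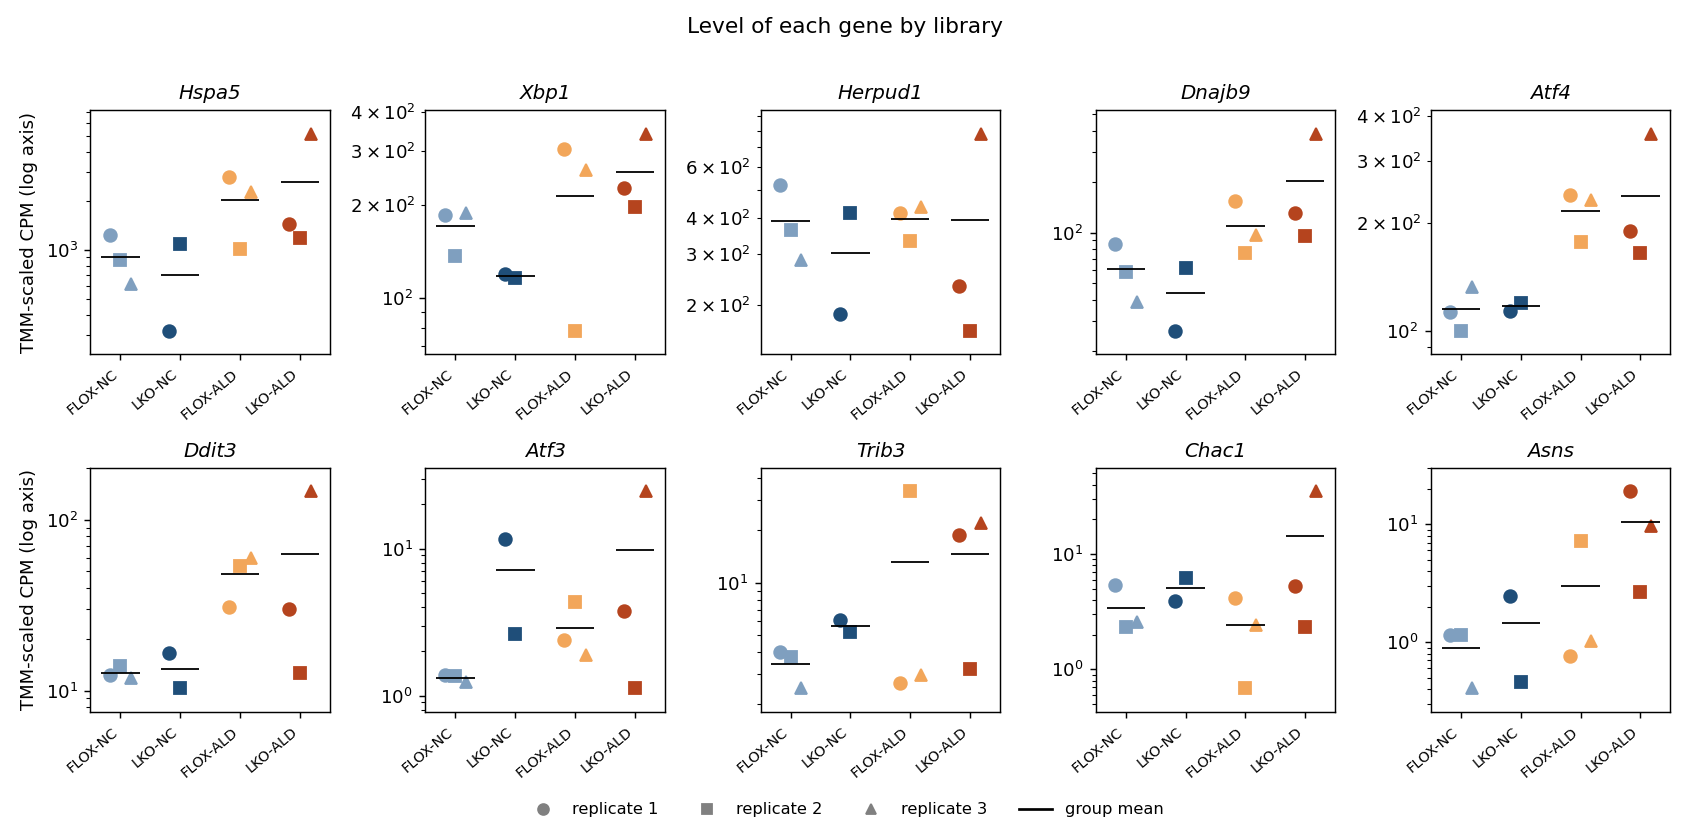
TMM-scaled CPM (log axis) of each gene in each library, by group (3 FLOX-NC, 2 LKO-NC, 3 FLOX-ALD, 3 LKO-ALD), with the symbol giving the replicate and the bar the group mean. Atf4 is the panel in which all 6 NIAAA libraries (165 to 357 CPM) lie above all 5 control libraries (100 to 133 CPM).

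Per transcript length (authors' FPKM), the chaperone gene Hspa5 had the highest median level over the 11 libraries, at 328 FPKM. Herpud1 followed at 177, then Xbp1 at 85.7, Atf4 at 84, Dnajb9 at 28.5 and Ddit3 at 16.7 FPKM. Chac1 (1.96), Trib3 (1.62), Atf3 (0.927) and Asns (0.684 FPKM) formed a low group. The ranges of neighbours in this order overlapped, for example 34.1 to 145 FPKM for Xbp1 and 47.9 to 165 FPKM for Atf4. Asns spanned 0.164 to 8 FPKM, so the gene with the lowest median was not the lowest in every library.

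Hspa5 encodes BiP, the main HSP70-type chaperone of the ER lumen and a repressor of the stress sensors. In floxed mice it stood at 1229, 868 and 620 CPM on control feeding and at 2822, 1012 and 2277 CPM on the NIAAA diet (replicates 1 to 3, in that order throughout). In Cre mice the values were 319 and 1084 CPM on control feeding and 1455, 1182 and 5191 CPM on the diet. The Cre groups did not overlap between feedings, while FLOX-ALD 2 lay inside the FLOX-NC range. The fitted diet effect was 1.53 log2 units averaged over genotypes (SE 0.486, adjusted p = 0.0906), from 1.17 (SE 0.628) in floxed and 1.90 (SE 0.744) in Cre mice. The Cre value was 0.911 without LKO-ALD 3 and 3.05 without LKO-NC 2, and the averaged value 1.02 without LKO-ALD 3.

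Dnajb9 encodes ERdj4, an ER co-chaperone of BiP. Floxed mice had 85.4, 58.7 and 38.8 CPM on control feeding and 154, 75.6 and 96.9 CPM on the diet, and Cre mice had 26.2 and 61.3 CPM against 130, 95.4 and 385 CPM. Of the 6 NIAAA libraries, 5 exceeded every control library, and FLOX-ALD 2 was the exception. The averaged diet effect was 1.53 log2 units (SE 0.42, adjusted p = 0.0639), with 0.83 in floxed and 2.22 (SE 0.653) in Cre mice. The Cre value was 1.37 without LKO-ALD 3 and 2.97 without LKO-NC 2, and the floxed value 0.49 without FLOX-ALD 1.

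Xbp1 encodes the transcription factor activated by IRE1 splicing, and gene-level counts do not separate the spliced from the unspliced form. Control-fed floxed mice had 186, 137 and 189 CPM and NIAAA-fed ones 304, 78.4 and 259 CPM. Cre mice had 120 and 116 CPM on control feeding and 228, 198 and 341 CPM on the diet. FLOX-ALD 2 held the lowest value of all libraries, and the other 5 NIAAA libraries exceeded every control. The averaged effect was 0.72 log2 units (SE 0.303, adjusted p = 0.181). Without FLOX-ALD 2 the averaged effect was 0.91 log2 units and passed the threshold (adjusted p = 0.022), and without FLOX-ALD 1 it was 0.55 (adjusted p = 0.313). In floxed mice the value was 0.33 with all libraries, 0.71 without FLOX-ALD 2 and -0.025 without FLOX-ALD 1.

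Herpud1 encodes a scaffold of the ER-associated degradation complex. Its NIAAA range, 163 to 782 CPM, enclosed the control range of 186 to 520 CPM, and its highest value was again in LKO-ALD 3. The averaged diet effect was 0.20 log2 units (SE 0.388, adjusted p = 0.81). Herpud1 overlaps an antisense gene (Gm15890, 535 bases, 7 to 71 counts per library), and whether counting used strand is not given in the sources used here.

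Atf4 encodes the central transcription factor of the integrated stress response. Control-fed mice had 113, 100 and 133 CPM (floxed) and 114 and 120 CPM (Cre). NIAAA-fed mice had 240, 177 and 232 CPM (floxed) and 191, 165 and 357 CPM (Cre). Every NIAAA library exceeded every control library, and no other of the 10 genes showed this separation over both genotypes (1 of 10, against 2.25% of all genes tested). The averaged diet effect was 0.97 log2 units (SE 0.217, adjusted p = 0.0292), with 0.91 (SE 0.285) in floxed and 1.02 (SE 0.326) in Cre mice. The value lay between 0.74 and 1.04 when single libraries were left out. The call was lost without FLOX-NC 1, 2 or 3 or FLOX-ALD 1 (adjusted p = 0.0504 to 0.0814). It was also lost without LKO-NC 1 or 2 (values 0.944 and 0.998), which leaves a lone LKO-NC library. A further fit, chosen after seeing the data, left out the 3 libraries rich in mitochondrial counts. It leaves only FLOX-ALD 1 and LKO-NC 2 in their groups. Its value was 1.02, and the call was lost there too.

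Ddit3 encodes CHOP, a transcription factor linked to cell death under prolonged ER stress. Floxed mice had 12.3, 14 and 11.8 CPM on control feeding and 30.7, 53.3 and 60 CPM on the diet. Cre mice went from 16.5 and 10.3 CPM to 30.2, 12.7 and 147 CPM. Control values kept within a narrow band, and 5 of 6 NIAAA libraries exceeded all of them, LKO-ALD 2 being the exception. The averaged effect of 2.08 log2 units (SE 0.582) had adjusted p = 0.0749 by edgeR and 0.000327 by DESeq2. The estimate in Cre mice, 2.24 (SE 0.884), was 0.68 without LKO-ALD 3. Leaving out LKO-ALD 3 also lowered the averaged value to 1.28, which then passed the threshold (adjusted p = 0.0325), as did the floxed value of 1.88 (adjusted p = 0.0435). Ddit3 shares 68 bases with Mars1 on the opposite strand, a gene with 1796 to 3682 counts per library, so its counts are uncertain where strand was not used.

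Atf3 encodes a stress-induced repressor that heterodimerises with other bZIP factors. Its level in floxed mice was 1.38, 1.36 and 1.23 CPM on control feeding and 2.39, 4.37 and 1.9 CPM on the diet. In Cre mice it was 11.7 and 2.63 CPM, against 3.76, 1.12 and 24.6 CPM on the diet. LKO-NC 1 and LKO-ALD 3 stood far above the rest, and LKO-ALD 2 was the lowest of all. LKO-NC 1 also had the highest sum of 11 neutrophil markers, 61.9 CPM against 3.74 to 31 CPM elsewhere (4 of the 11 averaged over 1 CPM), and 25.3% mitochondrial counts, and their part in the Atf3 value was not tested. The averaged diet effect was 0.79 log2 units (SE 0.723, adjusted p = 0.568) and became -0.23 without LKO-ALD 3.

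Trib3 encodes a pseudokinase that restrains ATF4 and AKT. Control-fed libraries held 4, 3.74 and 2.47 CPM in floxed and 6.11 and 5.21 CPM in Cre mice. NIAAA-fed libraries held 2.67, 33.5 and 2.95 CPM in floxed and 18.8, 3.2 and 22.1 CPM in Cre mice. Among NIAAA libraries, 3 exceeded every control and the other 3 lay among the controls. The averaged effect was 1.66 log2 units (SE 0.783, adjusted p = 0.251). In floxed mice the value was 1.94 (SE 1.03) with FLOX-ALD 2 and -0.29 without it, and FLOX-ALD 2 is one of the libraries with over 20% mitochondrial counts.

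Chac1 encodes a glutathione-degrading enzyme. Floxed mice had 5.36, 2.33 and 2.57 CPM on control feeding and 4.17, 0.684 and 2.44 CPM on the diet, and Cre mice 3.92 and 6.15 CPM and then 5.24, 2.35 and 35 CPM. Only LKO-ALD 3 lay above the control range, and FLOX-ALD 2, which had the highest Trib3, had the lowest Chac1. The averaged effect was 0.50 log2 units (SE 0.713, adjusted p = 0.729) and -0.47 without LKO-ALD 3.

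Asns encodes asparagine synthetase, a classical ATF4 target. On control feeding it was at 1.15, 1.14 and 0.405 CPM in floxed and 2.45 and 0.459 CPM in Cre mice. On the diet it was at 0.767, 7.15 and 1.03 CPM in floxed and 19.1, 2.69 and 9.65 CPM in Cre mice. All 3 LKO-ALD libraries and FLOX-ALD 2 exceeded every control, whereas FLOX-ALD 1 and 3 did not. The averaged effect of 2.29 log2 units (SE 0.804, adjusted p = 0.13) was the largest among the 10 genes in the fit of all 11 libraries. It was 1.40 without FLOX-ALD 2, where that of Ddit3 was 2.02, and 3.12 without LKO-NC 1, and over all alternatives it lay between 0.965 and 3.12. In floxed mice it was 1.73, and -0.020 without FLOX-ALD 2.

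**Figure D2:**
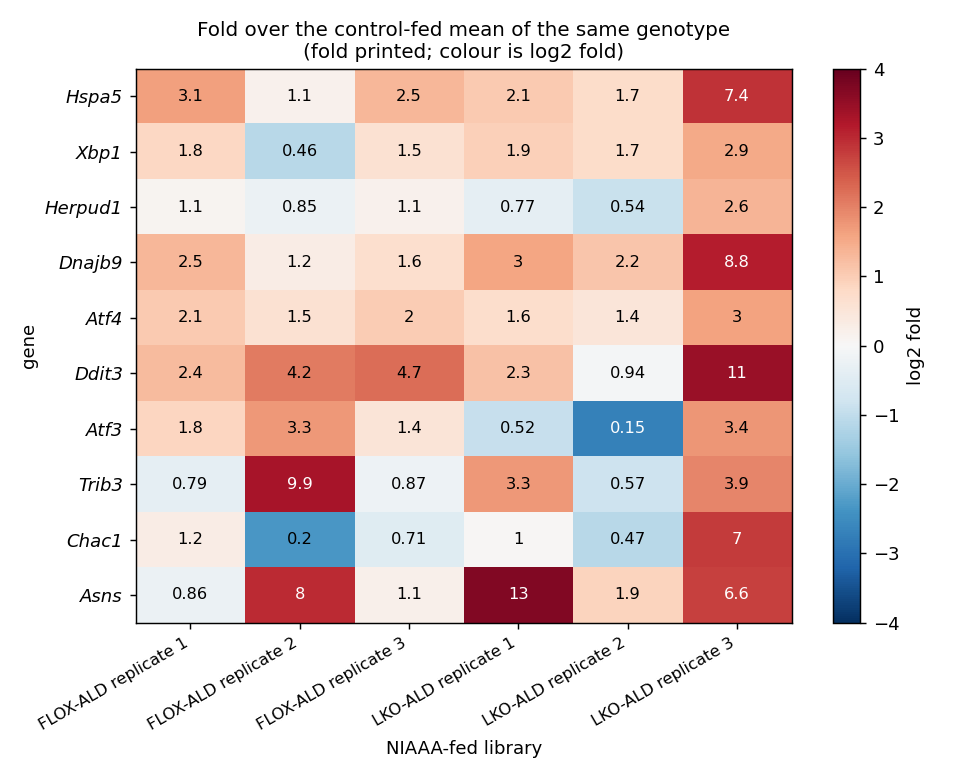
Fold of each gene in each of the 6 NIAAA-fed libraries over the mean of the control-fed libraries of the same genotype (numbers are folds, colour is log2 fold). The Trib3 and Asns rows are high in FLOX-ALD 2 (9.86-fold and 7.98-fold) and near or below 1 in FLOX-ALD 1 and 3, where Hspa5 is at 3.12-fold and 2.51-fold.

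The libraries high in Asns also assigned it to another transcript. The transcript with the upstream start, ENSMUST00000031766 (chr6:7675169-7693254, minus strand, build mm10), received 374, 931, 165 and 695 estimated counts in FLOX-ALD 2 and LKO-ALD 1, 2 and 3, and 0 in each of the other 7 libraries. In those 7 libraries the transcript ENSMUST00000115542 (chr6:7675169-7692871), which begins downstream and outside the RefSeq promoter window, received 20 to 103 counts. The authors' estimates were thus close to all-or-none, with 97.9 to 99.8% of Asns counts on the upstream transcript in the first 4 libraries. Both transcripts have 12 exons, and reads shared by them were divided by the estimation, so the share of each start is uncertain where the gene's total is low.

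**Figure D3:**
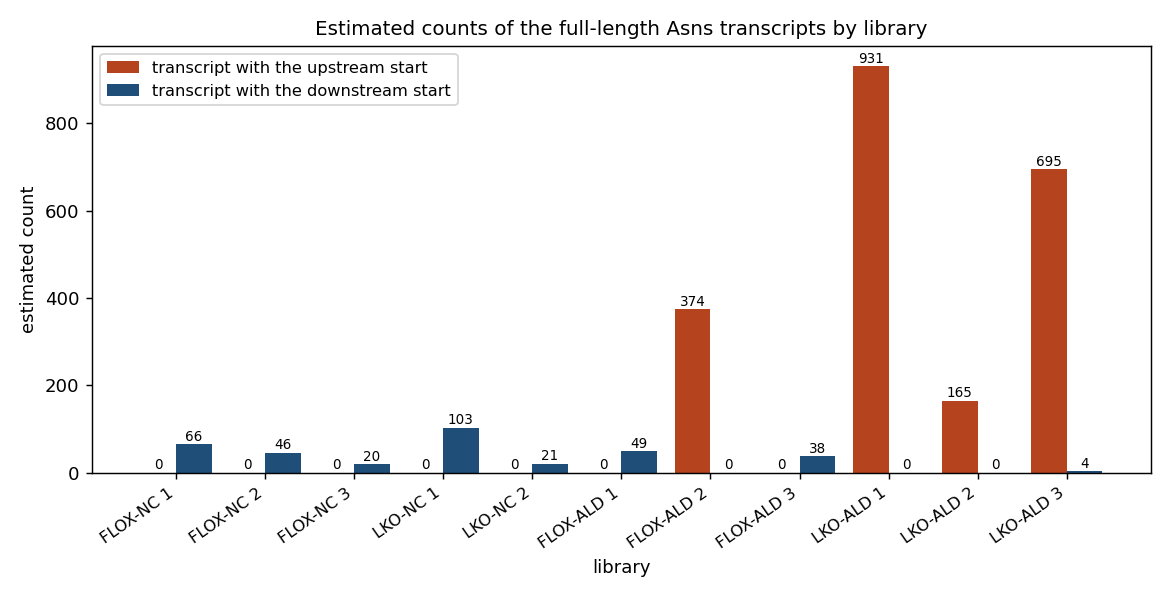
Estimated counts of the upstream-start (ENSMUST00000031766) and downstream-start (ENSMUST00000115542) transcripts of Asns in the 11 libraries. The upstream transcript appears in FLOX-ALD 2 and the 3 LKO-ALD libraries (165 to 931 counts) and is at 0 elsewhere.

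Transcripts with a retained intron took their largest share in FLOX-ALD 3 for 5 of the 7 genes that have one. There they made up 31.3% of Atf4 counts (6.47 to 21% elsewhere), 15.3% of Herpud1 counts (14.9% in FLOX-NC 3, the next highest), 9.56% of Xbp1, 1.74% of Trib3 and 1.67% of Hspa5 counts. Over all genes, FLOX-ALD 3 also had the highest share of such transcripts, 4.81% against 2.85 to 4.07%, and its part in these levels was not tested. The 6-exon Xbp1 transcript in the tables (ENSMUST00000239150) was listed at 0 in all 11 libraries.

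Counted together, all 10 genes had a positive averaged diet effect, with a median of 1.25 log2 units, against 52.7% positive and a median of 0.04 over all genes tested. This count rests in part on LKO-ALD 3. Without that library the averaged value was -0.31 for Herpud1, -0.23 for Atf3 and -0.47 for Chac1, and the others stayed positive. The edgeR test called 1 of 10 (Atf4), where it called 4.61% of all genes. At an unadjusted p under 0.05, 6 of 10 passed (background 22.7%), and by DESeq2 5 of 10 (Hspa5, Dnajb9, Atf4, Ddit3 and Asns; background 14.7%).

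In floxed mice, 9 of the 10 had a positive value, Chac1 being the exception. None was called by edgeR (background 0.221%), 2 passed at an unadjusted p under 0.05 (background 13.1%), and 1, Ddit3, was called by DESeq2 (background 4.2%). The FLOX-ALD libraries lay wholly above the FLOX-NC libraries for Atf4, Ddit3 and Atf3 (3 of 10, background 9.42%).

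In Cre mice all 10 values were positive. Without LKO-ALD 3 those of Herpud1 (-0.61), Atf3 (-1.56) and Chac1 (-0.41) were negative. None was called by edgeR (background 0.957%), 6 passed at an unadjusted p under 0.05 (background 19.5%), and 4 (Hspa5, Dnajb9, Atf4 and Ddit3) were called by DESeq2 (background 9.75%). The LKO-ALD libraries lay wholly above the 2 LKO-NC libraries for Hspa5, Xbp1, Dnajb9, Atf4 and Asns (5 of 10, background 20.1%).

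Without FLOX-ALD 1, the library that goes against its sex label, none of the 10 genes was called. The averaged diet effect was then 1.38 for Hspa5, 1.36 for Dnajb9, 0.55 for Xbp1 and 0.18 for Herpud1, and 0.93 for Atf4 (adjusted p = 0.0504). It was 2.20 for Ddit3, 0.86 for Atf3, 1.91 for Trib3, 0.17 for Chac1 and 2.52 for Asns. In floxed mice alone Hspa5 was at 0.85, Dnajb9 at 0.49, Xbp1 at -0.025, Herpud1 at -0.026 and Atf4 at 0.83 log2 units. The floxed values of the remaining genes were 2.15 for Ddit3, 1.25 for Atf3, 2.43 for Trib3, -1.16 for Chac1 and 2.19 for Asns.

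Markers of other cell types moved with the diet as well, in both directions. Of 12 Kupffer cell and macrophage markers, 11 had a negative averaged effect (median -0.84 log2 units) and 3 fell, Clec4f, Adgre1 and Cd68. This is a called share of 25%, against 4.61% of all genes. All 12 were negative in Cre mice (median -1.53). In floxed mice 5 of the 12 were positive (median -0.044) and none was called. The difference in diet effect between genotypes was positive for none of the 12 (median -1.505). None of these differences was called, and 7 had an unadjusted p under 0.05 by edgeR (background 9.37%). Their summed level was 158 to 264 CPM in FLOX-NC, 275 and 482 in LKO-NC, 150 to 364 in FLOX-ALD and 73.3 to 177 in LKO-ALD. Of 12 B and plasma cell markers, 11 were negative (median -1.46) and 5 fell, a called share of 41.7%. Other lists had mostly positive averaged effects. These were positive for 9 of 10 sinusoidal endothelial markers (median 0.379), 7 of 10 stellate cell markers (0.241), 6 of 9 neutrophil markers (1.284) and 5 of 7 cholangiocyte markers (0.199). Of 9 T and NK cell markers 1 was positive (median -1.046). The part of these cells in the values of the 10 genes was not tested.

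**Figure D4:**
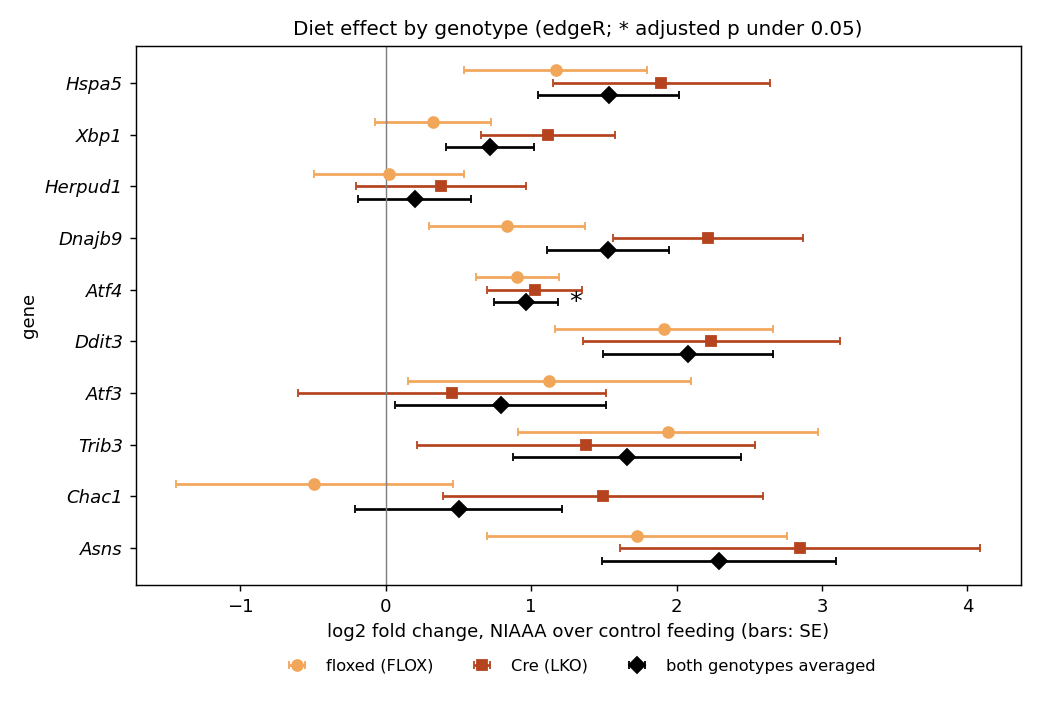
Log2 fold change of NIAAA over control feeding with its standard error for floxed mice, Cre mice and their average (edgeR). The star marks the call, Atf4 averaged over genotypes (0.97, SE 0.217), and the bars of floxed and Cre mice overlap for every gene except Dnajb9.

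The genotypes were then compared on each feeding. On control feeding none of the 10 genes was called by edgeR (background 0.0105%) or DESeq2 (background 0.316%), and 1, Atf3, had an unadjusted p under 0.05 (background 6.52%), at 2.44 log2 units (SE 1.06, adjusted p = 0.755). Hspa5, Xbp1, Herpud1 and Dnajb9 had negative values there, from -0.37 to -0.53, and Xbp1 was lower in both LKO-NC libraries than in every FLOX-NC library (1 of 10, background 13.9%). Atf3 and Trib3 were higher in both LKO-NC libraries than in every FLOX-NC library (2 of 10, background 15.1%). These shares lie near those of all genes.

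On the NIAAA diet none was called by edgeR (background 0%) or DESeq2 (background 0.654%), and 1, Chac1, had an unadjusted p under 0.05 (background 8.05%). The Chac1 difference of 2.54 log2 units (SE 0.991, adjusted p = 0.583) came with LKO-ALD 3 at 35 CPM, while LKO-ALD 1 and 2 lay at 5.24 and 2.35 CPM beside a FLOX-ALD range of 0.684 to 4.17 CPM. The Atf4 difference was 0.14 (SE 0.282) and that of Ddit3 0.40 (SE 0.723), which became -1.14 without LKO-ALD 3.

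The test of the difference in diet effect between genotypes called none of the 10 by edgeR (background 0.00526%) or DESeq2 (background 0.406%), and none passed at an unadjusted p under 0.05 (background 9.37%). Dnajb9 had the smallest unadjusted p, with an interaction of 1.38 log2 units (SE 0.815, adjusted p = 0.62). A larger diet effect in one genotype was therefore not established for any of the 10 genes.

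Genes around the 10 were read from pathway lists. Their counts are to be set against all genes tested, of which 4.61% were called and 52.7% were positive in the averaged diet comparison. Of 17 further ER chaperones and co-chaperones, 16 had a positive averaged diet effect (median 0.55 log2 units) and 1 rose past the threshold, Calu, a calcium-binding protein of the secretory pathway (0.95, SE 0.236, adjusted p = 0.0417), a called share of 5.88%. All 21 genes of ER translocation and export were positive (median 0.52), and Sec11c, a signal peptidase subunit, rose (0.96, SE 0.196, adjusted p = 0.0211), a called share of 4.76%. Both shares are near that of all genes. Among 13 protein disulfide isomerases and oxidases, 10 were positive and 2 rose. These were Ero1l, the oxidase that drives disulfide formation, at 1.20 (SE 0.235, adjusted p = 0.0179), and the thioredoxin-like Txndc11, at 1.04 (SE 0.243, adjusted p = 0.0333). Of 19 further degradation genes 16 were positive and none was called by edgeR (8 at an unadjusted p under 0.05, 6 by DESeq2). Of 11 further sensors and their transcription factors 8 were positive and none was called (2 at an unadjusted p under 0.05, 0 by DESeq2).

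On the integrated stress response side, 2 of 14 genes of the eIF2 list rose, namely Eif2b4 (0.90, SE 0.174, adjusted p = 0.0167) and Eif2b3 (0.69, SE 0.141, adjusted p = 0.0208). Both encode subunits of eIF2B, the exchange factor that the stress response inhibits. Of 13 further transcription factors and regulators 6 were positive, 2 rose and 1 fell. Atf5, a bZIP factor under similar translational control, had 133 ± 22.3 CPM in FLOX-NC, 251 ± 13.1 in LKO-NC, 537 ± 298 in FLOX-ALD and 459 ± 162 in LKO-ALD (SD, n = 3, 2, 3 and 3), a change of 1.44 log2 units (SE 0.290, adjusted p = 0.02). Vldlr, a lipoprotein receptor, rose by 2.21 log2 units (SE 0.501, adjusted p = 0.034), and Bbc3, which encodes the death-promoting protein PUMA, fell by 1.20 (SE 0.251, adjusted p = 0.023).

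In the next lists, the single or paired calls are again to be read against 4.61% of all genes called. Among 12 cytosolic aminoacyl-tRNA synthetases, 11 were positive and Iars rose (1.07, SE 0.242, adjusted p = 0.0296). Of 18 further amino acid synthesis and transport genes, 12 were positive and none was called by edgeR (6 at an unadjusted p under 0.05, 3 by DESeq2). Among 6 transcripts known to be cut by IRE1, 3 were positive (median -0.059) and 1, Bloc1s1, fell by 0.61 (SE 0.145, adjusted p = 0.0358). Outside the ER, 6 of 11 cytosolic heat shock genes were positive (median 0.093) and 1 rose (Bag3, 1.23, SE 0.225, adjusted p = 0.014). Of 8 mitochondrial chaperones and proteases 6 were positive and none was called by edgeR (0 at an unadjusted p under 0.05, 0 by DESeq2). Of 13 immediate-early genes 7 were positive and 2 fell, Dusp1 by 2.02 (SE 0.293, adjusted p = 0.00619) and Ier2 by 0.83 (SE 0.158, adjusted p = 0.0165). Within single genotypes the called genes of these lists were Dusp1 in floxed mice (-2.38, adjusted p = 0.0428) and Ero1l (1.86, adjusted p = 0.0405) and Eif2b3 (1.13, adjusted p = 0.0368) in Cre mice. Leaving out single libraries ended the averaged call of each of these genes in 2 to 8 of 11 fits, except for Dusp1, which kept it in all 11, and ended the single-genotype calls in 7 or 8.

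**Figure D5:**
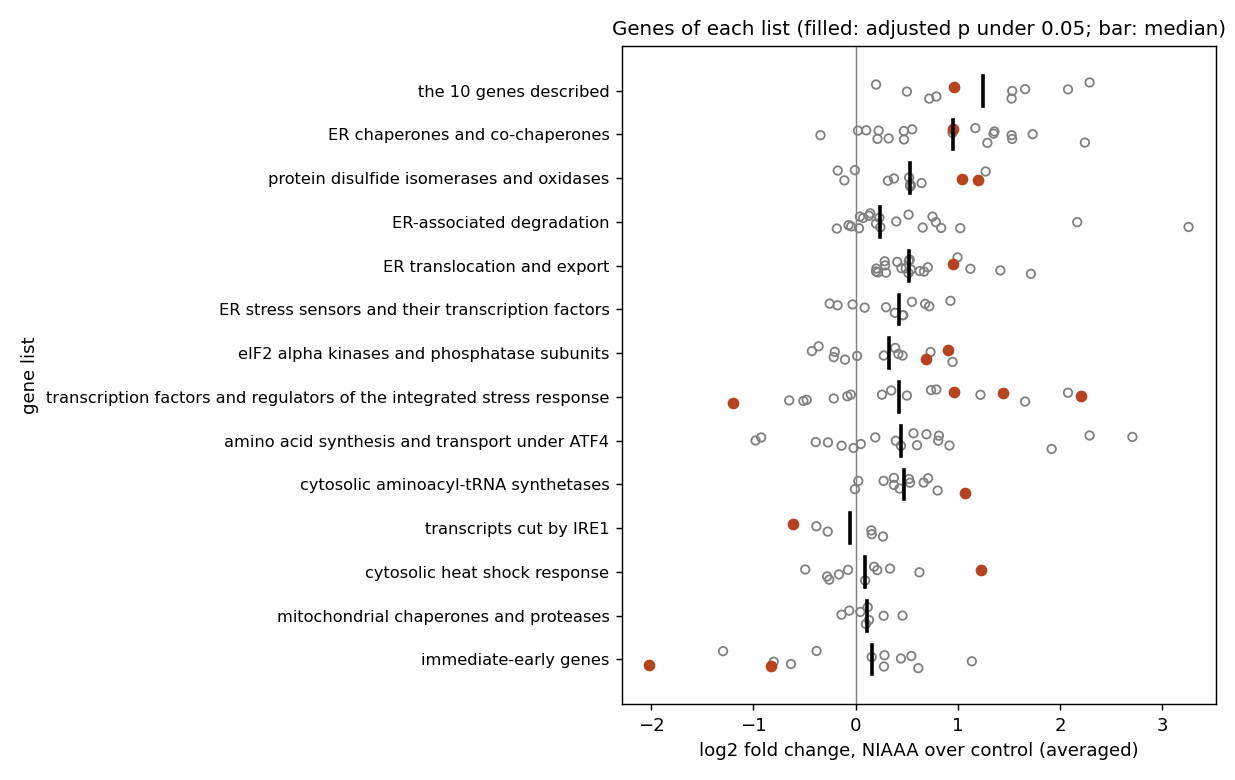
Averaged diet effect (log2 fold change) of every gene of each list, filled where the adjusted p was under 0.05, with a bar at the list's median; genes may stand in more than 1 list. The 10 genes described have a median of 1.25, and the lists of ER chaperones and of translocation lie mostly to the right of 0.

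A further 5 genes of the lists were singled out after their values were seen, so their levels are a description and add no support. Creld2, an ER-resident stress gene, held 363, 507 and 643 CPM in FLOX-ALD 1, FLOX-ALD 3 and LKO-ALD 3, against 75.5 to 134 CPM in the other 3 NIAAA libraries and 17.9 to 120 CPM in the controls. Derl3, a degradation factor, stood at 68.1, 253 and 107 CPM in the same 3 libraries and at 3.86 to 23.2 CPM in the other 3 NIAAA libraries. Derl3 is also a plasma cell marker. The 11 other B and plasma cell markers summed to 4.93 to 11.9 CPM in NIAAA libraries and 22.3 to 41.3 CPM in controls, and the part of plasma cells in the Derl3 values was not tested.

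In the amino acid arm, Psat1 was high in the same libraries as Trib3, and Mthfd2 and Fgf21 were not. Psat1, an enzyme of serine synthesis, held 8.31, 15.3 and 12.7 CPM in FLOX-ALD 2, LKO-ALD 1 and LKO-ALD 3, with 0.615 to 2.61 CPM in the other NIAAA libraries and 0.243 to 2.06 CPM in controls. Mthfd2, a mitochondrial folate enzyme, was at 17.6 and 21.2 CPM in LKO-ALD 1 and 3 but at 3.86 CPM in FLOX-ALD 2, close to FLOX-ALD 1 and 3 (4.11 and 3.26 CPM). The hepatokine gene Fgf21 was at 43.3 CPM in LKO-ALD 3 and at 3.65 to 13.1 CPM in the other 10 libraries. The 3 libraries high in Trib3 and Asns were among the 4 with the lowest hepatocyte marker sums, at 89464 (FLOX-ALD 2), 91513 (LKO-ALD 3) and 98897 CPM (LKO-ALD 1), with LKO-NC 1 at 97760 CPM. The part of cell composition in these levels was not tested.

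The genes most like Hspa5 across the 11 libraries, among 9410 genes averaging at least 5 CPM, were Dnajb11 (Pearson r of log2 CPM 0.98), Ubfd1 (0.98), Golt1b (0.98), Dnpep (0.98) and Creld2 (0.98). The most like Ddit3 were Ipo4 (0.97), Atp9b (0.97), Tsr1 (0.96), Rbm10 (0.96) and Supt5 (0.95). Among the 10 genes themselves, Hspa5 was closest to Dnajb9 (0.96) and Atf4 (0.85) and far from Trib3 (0.20), Atf3 (0.22) and Asns (0.25), and Ddit3 was closest to Atf4 (0.88). Without the 2 libraries farthest from the median of Hspa5 (LKO-ALD 3 and LKO-NC 1), its r with Dnajb9 was 0.88 and with Herpud1 fell from 0.69 to 0.27. For Ddit3 the 2 farthest were LKO-ALD 3 and FLOX-ALD 3. Without them its r was 0.731 with Trib3 and 0.705 with Atf4, and with Hspa5 fell from 0.709 to 0.338. Asns averaged under 5 CPM and so was compared with Hspa5 and Ddit3 alone, outside the 9410 genes. These correlations share the groups and the scaling of the libraries and are given as descriptions.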

How the data were processed

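Whole-liver mRNA was sequenced. Per the submitters' processing notes, reads went through cutadapt, FastQC, HISAT2, StringTie and edgeR on mm10, with versions and settings not given in the sources used here. The authors deposited whole-number estimated counts (expected counts) per gene and transcript, and FPKM values per gene and transcript; gene counts equal the sums of their transcripts. They were whole numbers, so no rounding was needed.

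From the deposited counts, TMM-scaled CPM were computed and edgeR 4.0.16 (R 4.3.3) fitted 1 mean per group over 11 libraries (filterByExpr with a count minimum of 10; robust quasi-likelihood fit; residual degrees of freedom 7; common biological variation 42.2%). P-values were adjusted by Benjamini-Hochberg over 19014 genes, with a threshold of 0.05. The fitting steps were also run on simulated counts. These had the same spread for all genes and equal changes in every NIAAA library, so they do not cover effects carried by single libraries. DESeq2 1.42.0, limma 3.58.1, other scalings and filters, log2(FPKM + 1), and leaving out libraries served as alternatives. Level ± SD is over libraries.

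The 10 genes, the lists and the tests were chosen with earlier results of these data known. Besides the 10 genes and Lpcat3, a list's named genes are up to 3 higher and 3 lower past the threshold; 5 genes of the lists (Creld2, Derl3, Psat1, Mthfd2 and Fgf21) were singled out after their values were seen. Promoter windows came from RefSeq (GRCm38.p6). Estimated counts limit precision to counting and assignment error.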

Additional observations from a re-analysis of the deposited data

How the results depend on the processing

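The number of the 10 genes called in the averaged diet comparison was 1 with edgeR, 5 with DESeq2 and 2 with limma voom. It was 2 without the robust prior, 2 with FPKM at either pseudocount (1 or 0.1) and 0 with FPKM and no filter. The fit without the 3 libraries rich in mitochondrial counts leaves only FLOX-ALD 1 and LKO-NC 2 in their groups. No number called is given for that fit. Leaving out single libraries gave a number called of 0 to 3. In floxed mice it was 0 with edgeR, 1 with DESeq2 and 0 to 1 with single libraries left out, and in Cre mice 0 with edgeR, 4 with DESeq2 and 0 with single libraries left out. For the genotype comparisons and the interaction every alternative called 0 of the 10. The number of all genes called ranged over the alternatives from 175 to 2304 in the averaged diet comparison (877 in the reported fit), 2 to 657 in floxed mice (42) and 6 to 1526 in Cre mice (182), 0 to 60 for genotype on control feeding (2), 0 to 124 on the NIAAA diet (0) and 0 to 77 for the interaction (1). Atf4 kept its direction in the averaged diet comparison in all 22 alternatives and its call in 14. The cause of these changes was not tested.

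Whether the numbers in the sample titles pair the samples is not settled here. Same-numbered libraries had correlations of their deviations from -0.0569 to 0.0778, over too few libraries to decide it. In LKO only numbers 4 and 6 occur on both feedings, so their correlations are equal by construction (-0.0569). With the number as a replicate block, 4 of the 10 genes were called in the averaged diet comparison (Hspa5, Dnajb9, Atf4 and Asns), and 0 in either genotype alone; all genes called were 488, 12 in floxed and 7 in Cre mice.

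Signs reversed for values that passed no threshold. Leaving out the 3 libraries rich in mitochondrial counts leaves only LKO-NC 2 in LKO-NC. In FLOX-ALD it leaves only FLOX-ALD 1, the library that goes against its sex label. Without the 3 libraries rich in mitochondrial counts, the diet effect in floxed mice was -0.35 for Trib3, 0.28 for Chac1 and -0.23 for Asns, and Herpud1 had -0.092 in Cre mice and -0.00020 averaged. The same alternative gave, for genotype on control feeding, 0.26 for Hspa5, 0.10 for Herpud1, 0.0061 for Dnajb9, -0.31 for Ddit3 and -0.97 for Asns; on the NIAAA diet -0.12 for Hspa5, -0.25 for Xbp1 and -0.015 for Atf4; and for the interaction -0.38 for Hspa5, -0.18 for Herpud1, -0.067 for Atf4, 1.05 for Atf3 and 1.85 for Trib3. Herpud1 was -0.0031 in floxed mice and 0.0016 for genotype on the NIAAA diet without mitochondrial genes, and 0.0045 for the latter with no filter. The Atf3 diet effect in Cre mice was -0.14 with voom, -0.050 with FPKM (pseudocount 1, filter or none) and -0.22 with pseudocount 0.1. The averaged Chac1 effect was -0.017 with voom and -0.039 with pseudocount 0.1. With voom, pseudocount 1 (filter or none) and pseudocount 0.1 in turn, Ddit3 had -0.28, -0.19 and -0.21 for genotype on the NIAAA diet and -0.32, -0.29 and -0.32 for the interaction, and Trib3 had 0.020, 0.052 and 0.045 for the interaction.

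Leaving out single libraries also reversed signs, over these ranges. In floxed mice the diet effect ranged from -0.025 to 0.71 for Xbp1, -0.16 to 0.28 for Herpud1, -0.29 to 2.43 for Trib3 and -0.020 to 2.19 for Asns. In Cre mice it ranged from -0.61 to 1.09 for Herpud1, -1.56 to 1.90 for Atf3 and -0.41 to 1.96 for Chac1. The averaged effect ranged from -0.31 to 0.56 for Herpud1, -0.23 to 1.51 for Atf3 and -0.47 to 0.74 for Chac1. For genotype on control feeding the ranges were -1.51 to 0.26 for Hspa5, -1.06 to 0.098 for Herpud1, -1.22 to 0.0050 for Dnajb9, -0.073 to 0.13 for Atf4, -0.31 to 0.39 for Ddit3 and -0.97 to 1.44 for Asns. On the NIAAA diet they were -0.60 to 0.70 for Hspa5, -0.14 to 0.62 for Xbp1, -0.97 to 0.35 for Herpud1, -0.26 to 0.33 for Atf4, -1.14 to 0.87 for Ddit3, -0.24 to 2.27 for Atf3 and -0.31 to 2.39 for Trib3. For the interaction they were -0.22 to 1.87 for Hspa5, -0.59 to 1.07 for Herpud1, -0.26 to 0.33 for Atf4, -1.20 to 0.82 for Ddit3, -2.65 to 0.77 for Atf3 and -1.04 to 1.65 for Trib3. With 2 or 3 libraries a group and a common biological variation of 42.2%, single libraries carry much of each group mean, and the averaged and interaction values have no fit with only the compared groups because they need all 4.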
